A study of Homo sapiens with 47 samples.

Results

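The gene for the interleukin-1 receptor antagonist, IL1RN, and 7 relatives that lie beside it on chromosome 2 (IL1A, IL1B, IL37, IL36G, IL36B, IL36RN and IL1F10) were examined in ChIP-seq of Ishikawa cells, a human endometrial adenocarcinoma line. The stretch examined was set by position, as the IL1RN promoter row, 1 of 23 regions in the table of signal, and all peaks in a 420-kb window (hg19 chr2:113500000-113920000). The 8 genes are called members, and IL36A, which also lies in this window, is not among them. Of the 47 libraries, 10 came from cells that received gRNAs for the IL1RN promoter and 37 from cells with other gRNAs. In the study, the IL1RN gRNAs served as the control for CRISPR activation of estrogen receptor-binding sites (ERBSs), so the IL1RN promoter was the targeted locus in the control libraries.

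All cells were grown in hormone-depleted media and transiently transfected with plasmids for a dCas9 fusion and for pooled gRNAs, and cells with both plasmids were selected before harvest. The fusions were dCas9-VP16(10x), which carries copies of a viral activation domain, and dCas9-p300(core), which carries the catalytic core of a histone acetyltransferase. Chromatin was precipitated for HA, the epitope tag on dCas9, for H3K27ac, a histone mark of active promoters and enhancers, or for RNA polymerase II (RNAPII). With dCas9-VP16(10x), IL1RN gRNAs were present in 1 HA, 2 H3K27ac and 2 RNAPII libraries, and 1 further H3K27ac library received gRNAs for adjacent regions together with those for IL1RN (labelled Adjacent + IL1RN). With dCas9-p300(core), IL1RN gRNAs were present in 2 H3K27ac and 2 RNAPII libraries and in no HA library analysed here. The other libraries received gRNAs for the regions adjacent to ERBSs (Adjacent), for ERBSs in 3 pools (Pool 1, Pool 2 and Pool 3), or, for HA, for the ERBSs together. The cells are a transfected mixture, and the labels do not say whether replicates came from separate cultures, so p-values measure the spread between libraries only.

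Interleukin-1α and interleukin-1β, encoded by IL1A and IL1B, are inflammatory cytokines that signal through the receptor IL1R1 and its partner IL1RAP to MYD88, the IRAK kinases and NF-kB. The IL1RN protein occupies the same receptor without starting a signal. IL36G and IL36B encode agonists of a related receptor, and IL36RN encodes the antagonist of that receptor. IL37 encodes a cytokine known to dampen inflammation, and IL1F10 encodes interleukin-38, a relative of the antagonists. Myeloid and epithelial cells are known sources of these proteins.

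The promoter region (hg19 chr2:113874426-113876426) is centred 44 bp before an annotated start of IL1RN at 113875470, from which all distances below are counted. The gene runs on the forward strand from 113856892 to 113891593, so the region is also intronic for isoforms that start further upstream. The stretch of promoter printed here is the part that separates the 2 H3K27ac peaks found with dCas9-p300(core), up to the base before the start, and it holds the summit of the HA signal. Capitals mark a match to TGANTCA, the AP-1 motif, whose last base lies 139 bp before the start.
IL1RN promoter, chr2:113875280-113875469, forward strand: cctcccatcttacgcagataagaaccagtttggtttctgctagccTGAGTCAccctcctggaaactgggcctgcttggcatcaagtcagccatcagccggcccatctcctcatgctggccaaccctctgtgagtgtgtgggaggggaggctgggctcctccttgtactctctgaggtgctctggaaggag
Of windows of this length in 35116 RefSeq promoters (GRCh38), 5.17% held TGANTCA on either strand. These windows end before RefSeq starts, and the nearest RefSeq start of IL1RN lies at 113875548, downstream of the start used here. Within these 190 bases, with a GC content of 57.9%, no match was found to TATAAA (8.20% of the windows), to CCAAT (27%) or to the NF-kB motif (7.79%). A match to the AP-1 motif was also present in the RefSeq promoters of IL1A and in none of those of IL1B, IL37, IL36G, IL36RN or IL1F10. Of all 35116 RefSeq promoters, which are longer than these windows, 7.71% held a match. The RefSeq promoters of IL1RN with starts at 113885066 and 113885175 had none, and IL36B was not examined. A match is a description of letters, not of binding.

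The cells' identity and the quality of the libraries were examined first. The promoters of the epithelial genes KRT8, KRT18, KRT19, EPCAM and CDH1 had an RNAPII peak in all 20 RNAPII libraries. The immune markers PTPRC, CD14, LYZ and CD3E had no promoter peak in any library. Peak names carry a number (15977 or 15968) in 31 of the 47 libraries and none in 16. The labels do not say what the number stands for. It is called a run identifier here, and libraries that share it are called a run. The labels also do not say whether the libraries without a number belong together. For H3K27ac, the run identifier divided the replicates of the IL1RN libraries. Replicate 1 of each construct carried 15977, whereas replicate 2 of each construct and the Adjacent + IL1RN library had no identifier. The signal rises in equal steps within each library, and a step was read as 1 read. Summed over the 23 regions, this gave 348 to 6999 reads for H3K27ac, 819 to 3472 for RNAPII and 468 to 38238 for HA. For HA, the columns of dCas9-VP16(10x) with ERBS gRNAs were counted as 1 library. They differed by less than sampling noise at the 11 regions outside the ERBSs, the only regions compared. Duplicates were removed in the first column and kept in the second. Over the 23 regions, these columns held 11322 and 38238 reads, with 0.592% and 0.199% on the IL1RN promoter. The likeness thus did not hold for the 23 regions as a whole. One H3K27ac library labelled dCas9-VP16(10x) Pool 1 replicate 2 carries the letter of dCas9-p300(core) in its column and peak names, and it was kept with the construct of its title.

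HA signal at the IL1RN promoter separated the library with IL1RN gRNAs from all others. It was 19.3 normalized units in that library (760 reads). In the other dCas9-VP16(10x) libraries, it was 0.616 and 0.360 with Adjacent gRNAs and 0.761 with ERBS gRNAs. In the dCas9-p300(core) libraries with ERBS gRNAs, it was listed at 0 in replicate 1, where 3 reads would give 0.789, and was 1.07 in replicate 2 (6 reads). The targeted library was thus far above the 3 others of its construct, which had a mean of 0.579 ± 0.203 (SD, n = 3), and the ratio was 33.3. Among the libraries without a run identifier, which leaves out Adjacent replicate 2, the ratio was 28.0. In the targeted library, 44% of the reads in the 23 regions fell on the IL1RN promoter, compared with 0.199 to 1.14% in the other columns of dCas9-VP16(10x). On the log2(signal + 0.0742) scale, the difference was 4.94 ± 1.58 (SE) with a 95% confidence interval of 0.77 to 9.11. With limma over the 23 regions, the adjusted p was 0.0887 and no region passed the threshold of 0.05 (0% called), whereas 8 of 23 regions had an unadjusted p under 0.05 (34.8%). IL1RN had the largest difference of the 23 regions but only the seventh smallest p, and it was the only 1 of the 8 regions that was higher with IL1RN gRNAs (4.35% of regions). An exact permutation test of 1 library against 3 gave p = 0.5, which is the smallest it allows.

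H3K27ac at the IL1RN promoter was higher in all 3 dCas9-VP16(10x) libraries with IL1RN gRNAs than in any of the 7 others. It was 0.408 in replicate 1 (65 reads), 4.00 in replicate 2 (977 reads) and 2.57 in the Adjacent + IL1RN library (515 reads). The 7 others had a lowest value of 0, a median of 0.112 and a highest value of 0.172. The lowest of these was Pool 3 replicate 1, which held only 348 reads in the 23 regions and in which 3 reads would give 0.120. The groups did not overlap, and IL1RN was the only region of the 23 with that pattern (4.35%). The ratio of means was 22.3 (2.33 ± 1.81, n = 3, against 0.104 ± 0.0675, n = 7), with a far wider spread among the targeted libraries than among the others. With limma, the difference was 4.52 ± 1.13 on the log2(signal + 0.00415) scale (95% confidence interval 2.1 to 6.93), with an adjusted p of 0.0282, and IL1RN was the only region called (4.35%). The exact permutation test gave p = 0.0167, the smallest value that 3 libraries against 7 allow, and 0.0833 after adjustment over the 5 comparisons of antibody and construct. The limma call was lost without the Adjacent + IL1RN library (adjusted p = 0.146), without IL1RN replicate 2 (0.140), without Pool 1 replicate 1 (0.0545) and without Pool 2 replicate 1 (0.0512).

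With dCas9-p300(core), 1 of the 2 libraries with IL1RN gRNAs stood above all others. Signal was 0.423 in replicate 1 (61 reads) and 5.37 in replicate 2 (319 reads). The 8 others ran from 0.0271 to 0.540 with a median of 0.157. Replicate 1 was therefore below the 2 highest of the others, and no region of the table separated the groups (0%). The ratio of means was 12.6 (2.90 ± 3.50, n = 2, against 0.229 ± 0.198, n = 8). With limma, the difference was 3.31 ± 1.30 (95% confidence interval 0.54 to 6.08), and it did not pass after adjustment (adjusted p = 0.517, 0% of regions called), although it passed with a block for the run identifier, as given with the runs. The exact permutation test gave p = 0.133. The differences of the 2 constructs, 4.52 and 3.31, were 1.21 ± 1.72 apart, with a 95% confidence interval of -2.47 to 4.88 (limma, adjusted p = 0.991), so neither a larger effect of dCas9-VP16(10x) nor an equal one was shown.

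**Figure D1:**
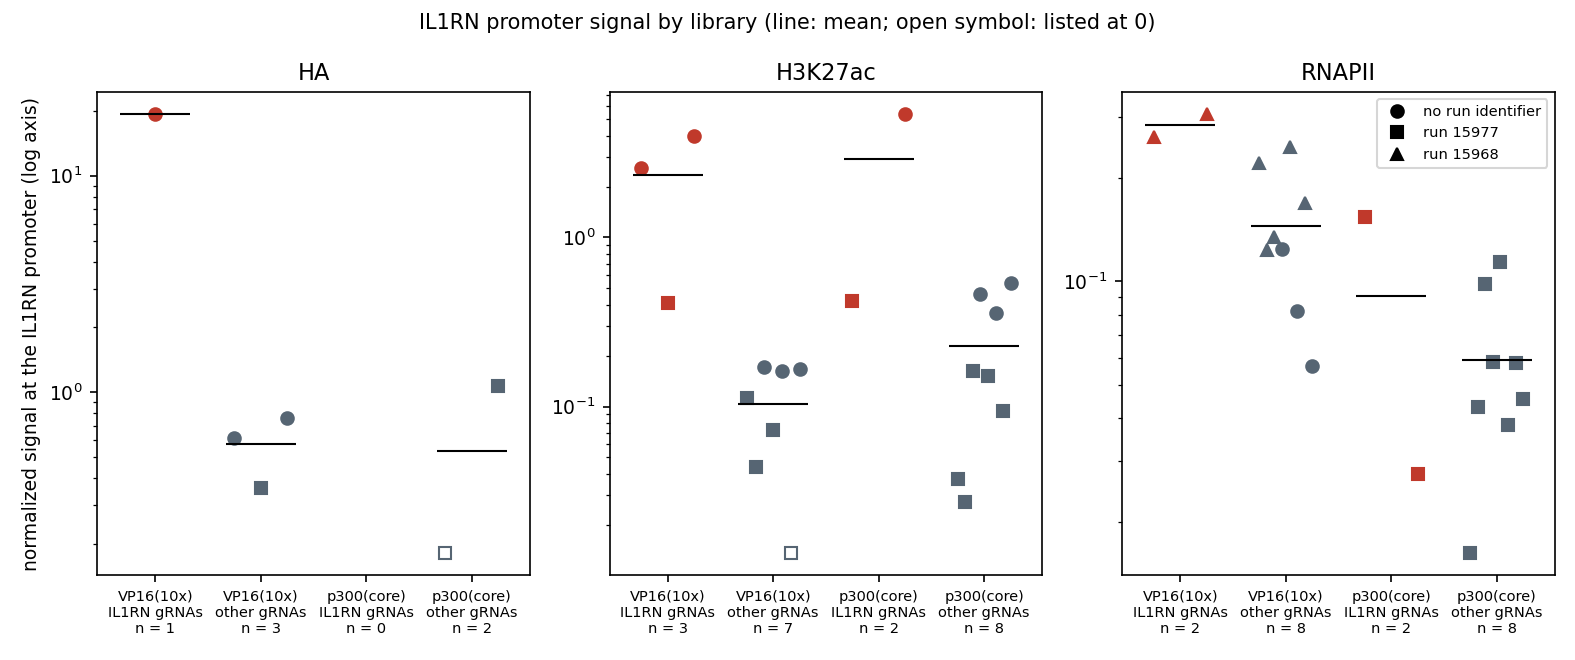
Normalized signal at the IL1RN promoter (log axis) for HA, H3K27ac and RNAPII in each library, by construct and gRNAs. Red symbols are libraries with IL1RN gRNAs, grey symbols are the others, shapes give the run identifier, lines are means and open symbols are values listed at 0. In H3K27ac, both red squares from run 15977 (0.408 and 0.423) lie below the red circles without an identifier (2.57 to 5.37), and grey squares lie below grey circles of the same construct.

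The spread between the targeted H3K27ac libraries followed the run identifier. Among dCas9-VP16(10x) libraries without an identifier, the targeted libraries were 2.57 and 4.00 and the 3 others were 0.162 to 0.172, a ratio of 19.7. In run 15977, the targeted library was 0.408 and the 4 others were 0 to 0.112, a ratio of 7.12. Untargeted libraries of run 15977 were also lower, so each targeted library exceeded every other library of its own run status. Among dCas9-p300(core) libraries without an identifier, the targeted library was 5.37 and the 3 others were 0.359 to 0.540, a ratio of 11.8. In run 15977, the targeted library was 0.423 and the 5 others were 0.0271 to 0.162, a ratio of 4.48. Replicate 1 of dCas9-p300(core) was thus the highest of its run, although it lay within the range of the others when runs were pooled. A pattern of this kind was met by 4 of 23 regions in run 15977 and 2 without an identifier for dCas9-VP16(10x) (17.4 and 8.7%), and by 2 and 5 for dCas9-p300(core) (8.7 and 21.7%).

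With the run identifier as a block in limma, the difference was 3.91 for dCas9-VP16(10x) (adjusted p = 3.84e-05) and 2.99 for dCas9-p300(core) (adjusted p = 0.0043). The block fit called 7 of the 23 regions for dCas9-VP16(10x) and 1 of 23 for dCas9-p300(core), so for dCas9-VP16(10x) the call was not particular to IL1RN. In fits of the libraries without an identifier only, IL1RN passed for both constructs, with 4.23 (adjusted p = 0.000149) and 3.57 (adjusted p = 0.0021). In fits of the libraries with an identifier only, it passed for neither, with 3.49 (adjusted p = 0.298) and 2.42 (adjusted p = 0.701). The direction was the same in all of these fits. The block and the fits without an identifier treated the unnumbered libraries as 1 set. The labels do not say whether those libraries belong together, so the adjusted p-values depend on that choice. Within each run status, dCas9-p300(core) had 1 targeted library, as did dCas9-VP16(10x) in run 15977.

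Ratios at the ERBSs, which other libraries targeted, were set beside those at IL1RN. At the 6 ERBSs of MMP17 and CISH, the pool listed for the site in the labels gave the highest ratio of the 3 pools in all 6 cases, for both constructs and run statuses. At the 6 ERBSs of FHL2 and HES2, the listed pool did so in 0 or 1 case, with ratios of 0.142 to 1.51, so it is in doubt which libraries targeted these sites. For both constructs and run statuses, FHL2-3 was highest with Pool 1 (6.24 to 16.8) and FHL2-1 with Pool 2 (5.14 to 5.89). HES2-1 was highest with Pool 3 (1.52 to 2.50), and at FHL2-2, HES2-2 and HES2-3 the highest pool varied. The FHL2 and HES2 sites are therefore given apart, a choice made after the values were seen. Within libraries without an identifier, the ratio at IL1RN exceeded that at all 6 ERBSs of MMP17 and CISH for both constructs, where the ERBSs ran from 2.21 to 14.3 (median 6.20) with dCas9-VP16(10x) and from 4.20 to 9.57 (median 7.19) with dCas9-p300(core). It also exceeded the ratio of any pool at the 6 ERBSs of FHL2 and HES2, whose highest were 13.6 and 7.07. Within run 15977, the ratio at IL1RN exceeded that at 4 of the 6 ERBSs of MMP17 and CISH for dCas9-VP16(10x) (2.62 to 16.4, median 4.42) and 3 of the 6 for dCas9-p300(core) (2.87 to 11.8, median 5.29). It exceeded the ratio of any pool at 5 and 4 of the 6 ERBSs of FHL2 and HES2, whose highest were 16.8 and 6.24. The ratio was lower in run 15977 at 3 and 4 of the 6 ERBSs of MMP17 and CISH, respectively, and at IL1RN for both constructs. These ratios rest on 1 or 2 targeted libraries each and were not tested.

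**Figure D2:**
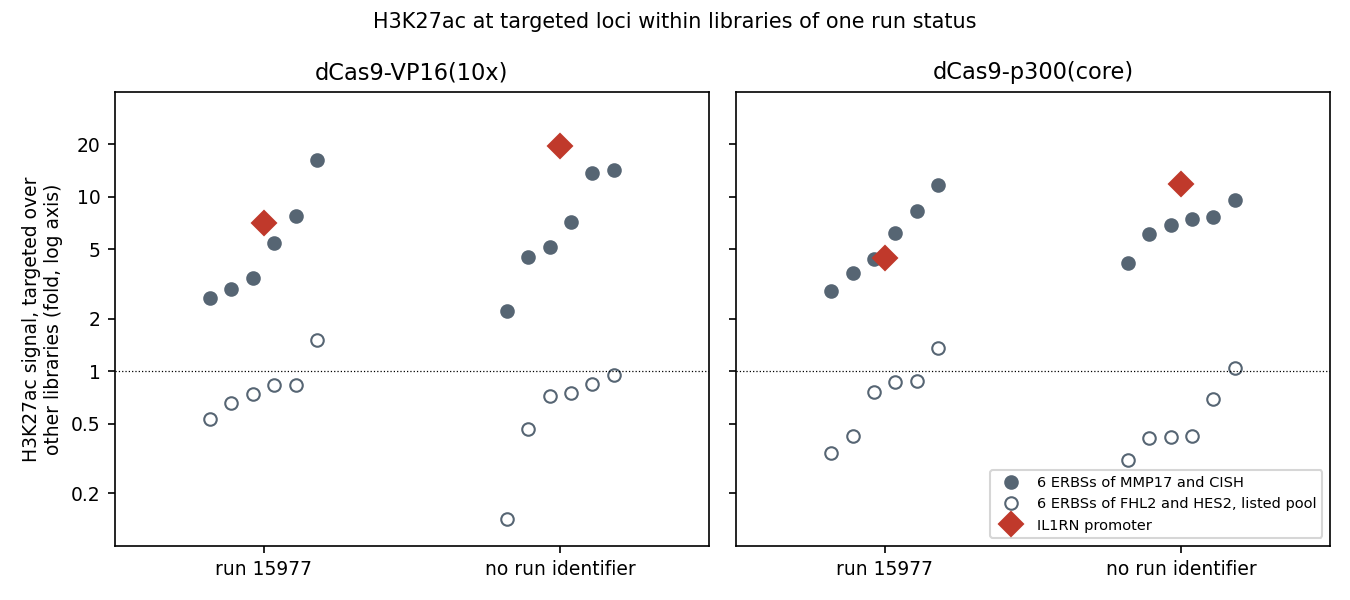
Ratio of mean H3K27ac signal in targeted libraries to that in other libraries (log axis) at the IL1RN promoter (diamonds), at 6 ERBSs of MMP17 and CISH (filled circles) and at 6 of FHL2 and HES2 with the pool listed for them (open circles), within run 15977 and within libraries without an identifier. The IL1RN diamond is above all circles without an identifier (19.7 and 11.8) and lies among the filled circles in run 15977 (7.12 and 4.48). Which libraries targeted the sites of the open circles is in doubt.

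No difference in RNAPII at the IL1RN promoter passed the threshold after adjustment. With dCas9-VP16(10x), signal was 0.263 (66 reads) and 0.306 (71 reads) with IL1RN gRNAs, and the 8 others ran from 0.0568 to 0.246 with a median of 0.129. Both targeted libraries were above all others, a pattern shared by no other region (4.35%), and the ratio of means was 1.97. The nearest of the others was Pool 2 replicate 1, with 0.246. With limma, the difference was 1.08 ± 0.61 on the log2(signal + 0.00395) scale (95% confidence interval -0.21 to 2.38), with an adjusted p of 0.983 and 0% of regions called. The exact permutation test gave p = 0.0444, the smallest it allows, and 0.111 after adjustment. Both targeted libraries belonged to run 15968, in which the 5 others had a mean of 0.179 and the ratio was 1.59, and the run block gave a difference of 0.69 (limma, adjusted p = 0.824). Over the other 22 regions, the reads of this targeted pair gave a chi-square of 15.9 on 21 degrees of freedom, within sampling noise. These libraries may be 1 library or close replicates, and their peak lists differed (35592 and 33212 peaks). Counted as 1, they gave a difference of 1.09 (limma, adjusted p = 0.999).

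With dCas9-p300(core), RNAPII signal was 0.154 (19 reads) and 0.0276 (7 reads) with IL1RN gRNAs, and the 8 others ran from 0.0162 to 0.114 with a median of 0.0517. The targeted libraries lay on either side of most others, and replicate 1, the higher, had the fewest reads of the antibody (819). The ratio of means was 1.54 and the limma difference was 0.34 ± 0.61 (95% confidence interval -0.96 to 1.64, adjusted p = 0.909, 0% of regions called), which became -0.82 without replicate 1. The exact permutation test gave p = 0.756. The constructs' differences were 0.74 ± 0.86 apart (95% confidence interval -1.09 to 2.58).

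Without IL1RN gRNAs, the IL1RN promoter was among the weakest regions of the table for every antibody, ranking 18 to 23 of 23 by mean signal. These libraries received gRNAs for ERBSs or adjacent regions, which are most of the other regions. The ranks are therefore partly set by the design and are not those of untargeted cells. For RNAPII with dCas9-VP16(10x), for example, its mean was 0.145, whereas the promoters of MMP17, CISH, FHL2 and HES2 ran from 0.315 to 1.32. The regions whose log2 signal followed IL1RN most closely across libraries were FHL2-B (Pearson's r = 0.48) and CISH-A (0.44) for H3K27ac over 20 libraries. Both are adjacent regions, which the Adjacent + IL1RN library targeted together with IL1RN. The closest regions were HES2-2 (0.84) and FHL2-2 (0.77) for RNAPII over 20 libraries, and the CISH (0.59) and FHL2 (0.37) promoters for HA over 6. Libraries of 1 antibody differ in run identifier, depth and gRNAs, which were not separated here, so these values are descriptive.

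Peaks, which the authors called in each library separately, gave the position of the signal. The HA peak of the IL1RN library spanned 113874786 to 113875977, had its summit 67 bp before the start (113875403), and at 142.7-fold enrichment ranked 1 of the library's 8149 peaks. A peak at the same place was also called in ERBS replicate 2 of dCas9-VP16(10x), with its summit 65 bp before the start, but it was 236 bp wide, at 8.46-fold, and ranked 26447 of 30740. With that list allowed, 14 of 20163 promoters of coding genes had a peak in the IL1RN library and in at most 1 of the 4 other lists (0.0694%). Over libraries, the peak was present in 1 of 1 and 1 of 3, respectively (Fisher's exact test, p = 1).

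H3K27ac peaks at the promoter were wider than the HA peak with dCas9-VP16(10x). Replicate 2 had a peak of 1679 bp at 32.0-fold, ranked 468 of 25160, with its summit 79 bp after the start. The Adjacent + IL1RN library had a peak of 1886 bp at 29.1-fold, ranked 810 of 27208, with its summit 252 bp after the start. Both peaks enclosed the HA peak. Replicate 1, the library of run 15977, had no peak at the promoter although its list held 16463 peaks. A peak was thus called in 2 of 3 libraries with IL1RN gRNAs and in 0 of the 7 others (Fisher's exact test, p = 0.0667 and 0.333 after adjustment over 5 tests). This pattern was met by 4 of 20163 coding promoters (0.0198%) and by 9 of 34829 merged peak sites (0.0258%).

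With dCas9-p300(core), replicate 2 had 2 peaks. The upstream peak ran from 113874427 to 113875279 (853 bp, 5.67-fold, rank 3850 of 4088), and the downstream peak from 113875472 to 113876141 (670 bp, 19.8-fold, rank 9). The HA summit of the dCas9-VP16(10x) library lay in the interval between them, which is the stretch of sequence printed above plus the first 2 bases of the transcript. The downstream peak, with its summit 239 bp after the start, was the stronger. Replicate 1 had no peak at the promoter in a list of 18664. The count was 1 of 2 libraries with IL1RN gRNAs and 0 of the 8 others (Fisher's exact test, p = 0.2), a pattern met by 92 of 20163 coding promoters (0.456%). RNAPII peaks at the promoter were absent from all 20 libraries, in which 34 of 20163 coding promoters (0.169%) had a peak in both dCas9-VP16(10x) libraries with IL1RN gRNAs and in none of the 8 others.

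**Figure D3:**
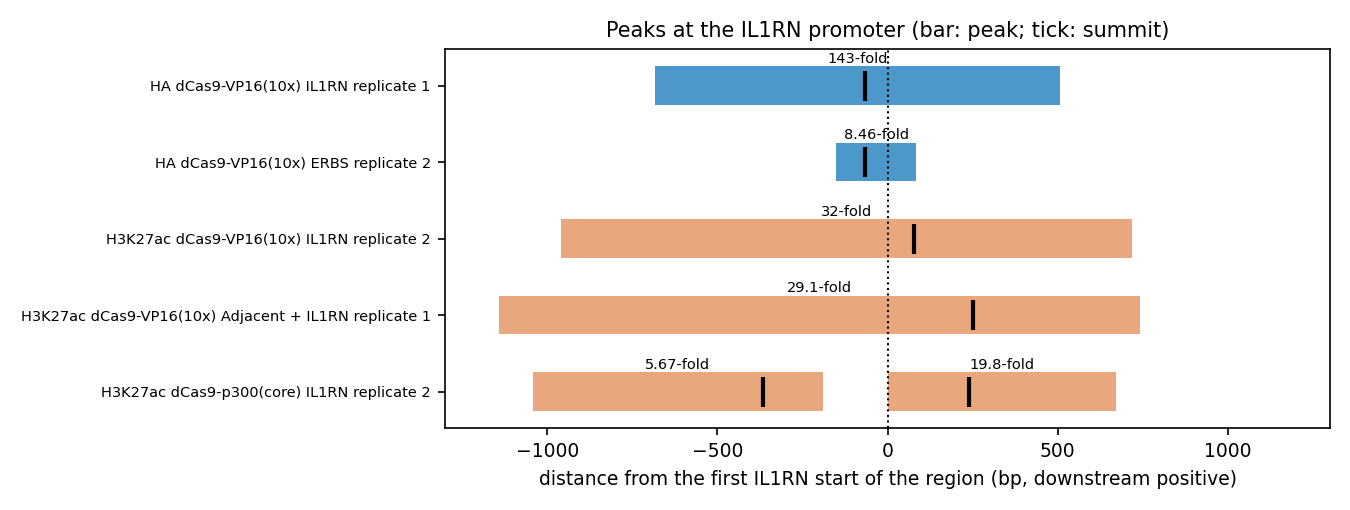
Extent (bars) and summits (ticks) of every peak that overlapped the IL1RN promoter region, in bp from the start, for HA (blue) and H3K27ac (orange), with the fold enrichment of each peak. Both HA summits lie 65 to 67 bp before the start, the dCas9-VP16(10x) H3K27ac bars span the start, and the dCas9-p300(core) bars leave a gap that holds the HA summits.

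Peaks at the ends of the window were compared between the replicates. At the PSD4 promoter, which is not a targeted locus and lies at the end of the window downstream of IL1RN, H3K27ac enrichment reached 100.4-fold in replicate 1 of dCas9-VP16(10x) and 51.6-fold in replicate 1 of dCas9-p300(core). At the CKAP2L promoter, at the other end, it reached 19.0- and 17.3-fold. Replicate 2 of dCas9-VP16(10x) had up to 21.8-fold at PSD4 and 11.9-fold at CKAP2L, and replicate 2 of dCas9-p300(core) had no peak at either. Replicate 1 was thus the higher at these untargeted neighbours and replicate 2 at the IL1RN promoter, for both constructs. Enrichment was also higher over all peaks of replicate 1, with medians of 27.4-fold in replicate 1 and 10.8-fold in replicate 2 for dCas9-VP16(10x), and 18.7- and 8.17-fold for dCas9-p300(core).

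Across the cluster, the other 7 members had no peak in the promoter (within 1 kb of an annotated start) or the gene body in any of the 47 libraries, as was also the case for 21.6% of the 20163 coding genes. For IL1A and IL1B, the agonists, this held for the 4 RNAPII, 5 H3K27ac and 1 HA libraries with IL1RN gRNAs as for the other libraries. It held likewise for the IL-36 genes IL36G, IL36B and IL36RN, for IL37, and for IL1F10, the member closest to IL1RN. IL36A, which is not a member, also had no such peak in any library. IL1RN itself had a peak in 11 libraries, of which 10 remained at a −log10 p of at least 20. The window held 121 peaks, which merged into 8 sites when gaps of up to 500 bp were joined. The ends of the window, CKAP2L (31 libraries) and PSD4 (34 libraries), held most of them.

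**Figure D4:**
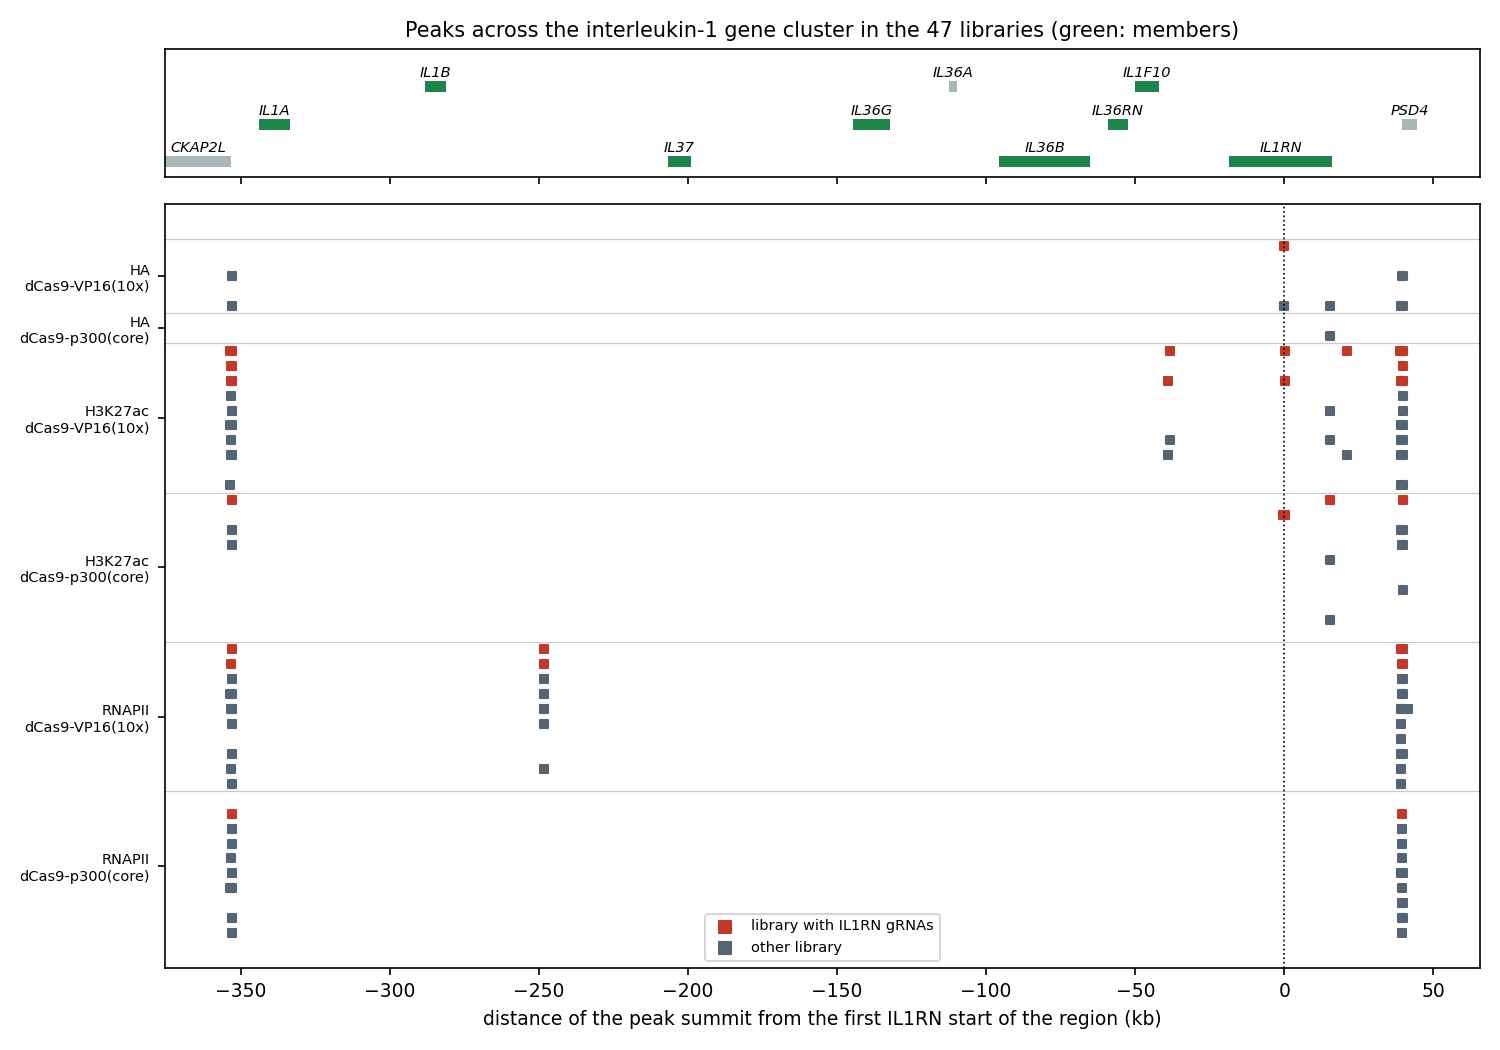
Peak summits in each of the 47 libraries (1 line per library) by distance from the IL1RN start in kb, below the coding genes of the window with the members in green (NT5DC4, at its edge, is not drawn). Red marks are libraries with IL1RN gRNAs and grey marks are the others. Peaks stand in columns at CKAP2L and PSD4 in most libraries, at the IL1RN promoter in 5, and at a site between IL1B and IL37 in 7 RNAPII libraries.

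An intergenic RNAPII site lay between IL1B and IL37, 32903 bp upstream of IL1B (113626863 to 113627477). Peaks were called there in 7 of 10 RNAPII libraries of dCas9-VP16(10x) and in 0 of 10 of dCas9-p300(core). Enrichment was 15.7- and 14.6-fold in the libraries with IL1RN gRNAs and 14.1- and 10.6-fold in the Adjacent libraries. It was 11.8- and 4.45-fold in the Pool 1 libraries and 7.20-fold in Pool 3 replicate 1. The IL1RN libraries were the highest, but the peak was not particular to them. Of these peaks, 6 were in the 7 libraries of run 15968 and 1 was in the 3 libraries without an identifier, whereas all dCas9-p300(core) libraries came from run 15977, so construct and run cannot be told apart. No H3K27ac or HA peak was called at the site. The 256 bases common to the 7 peaks are shown because they are the only RNAPII site of the cluster outside its ends, with a match to TGANTCA and a match to TATAAA on the reverse strand (TTTATA) in capitals.
Site upstream of IL1B, chr2:113627108-113627363, forward strand: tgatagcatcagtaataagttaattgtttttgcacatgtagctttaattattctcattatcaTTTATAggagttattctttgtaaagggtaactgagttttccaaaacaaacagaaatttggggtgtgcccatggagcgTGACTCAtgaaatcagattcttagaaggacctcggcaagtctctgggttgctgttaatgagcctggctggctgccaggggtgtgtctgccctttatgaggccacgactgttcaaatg
Of 2153 windows of this length at RNAPII summits on chromosome 2, 9.01% held TGANTCA and 4.04% held TATAAA on either strand. The GC content of the site was 41.4%, below the 57.9% of the IL1RN stretch.

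Further sites lay around IL1RN. In the last exon of IL1RN, which holds its 3′ UTR (113890296 to 113891278), H3K27ac peaks were called in 5 libraries, all of run 15977. They were 11.9- and 16.1-fold with dCas9-VP16(10x) in replicate 1 of Pool 1 and Pool 2. With dCas9-p300(core), they were 11-fold in IL1RN replicate 1, 9.26-fold in Pool 1 replicate 1 and 44.1-fold in Pool 3 replicate 1. The highest was thus in a library without IL1RN gRNAs, and none of the 9 H3K27ac libraries without an identifier had a peak there. HA peaks at the same place were called in ERBS replicate 2 of each construct (10.9- and 14.2-fold), and not in the HA library with IL1RN gRNAs.

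Upstream, between IL1F10 and IL1RN (113836302 to 113837360), weak H3K27ac peaks were called in 4 dCas9-VP16(10x) libraries and in none of dCas9-p300(core). Enrichment was 6.99-fold in IL1RN replicate 2 and 6.12-fold in the Adjacent + IL1RN library, and 7.87- and 4.75-fold in the Pool 2 libraries, which did not have IL1RN gRNAs. Downstream (113896173 to 113896780), peaks were called in the Adjacent + IL1RN library (7.50-fold) and in Pool 2 replicate 2 (8.84-fold). At each of these sites, libraries with and without IL1RN gRNAs were both among those with a peak, so the promoter was the only site of the window where H3K27ac peaks were limited to libraries with IL1RN gRNAs.

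The 19 genes of the interleukin-1 pathway outside the cluster were described by their promoter peaks. RNAPII peaks were present in all 20 RNAPII libraries for 9 genes, which were the receptor partner IL1RAP, the adaptor MYD88, the kinases IRAK1 and IRAK4, the ubiquitin ligase TRAF6, the NF-kB subunits NFKB1 and RELA, and the negative regulators SIGIRR and TOLLIP. The signalling receptor IL1R1 had an RNAPII peak in 19 libraries (3 of 4 with IL1RN gRNAs and 16 of 16 others), and IL18R1 had one in 7. The other 8 genes had none. They were the decoy receptor IL1R2, the receptors IL1RL1, IL1RL2 and IL18RAP, the cytokines IL18 and IL33, the kinase IRAK2 and the protease CASP1, which matures interleukin-1β. An RNAPII peak in at least 1 library was thus called at 0 of 8 promoters of the cluster and at 11 of 19 of the pathway list, compared with 72.4% of the 20163 coding promoters.

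H3K27ac peaks were present at 13 of the 19 pathway promoters in at least 1 of 20 libraries, compared with 69.3% of all coding promoters. They ranged from 18 libraries for NFKB1 to 1 for IL1RL2, and no gene had one in all 20. The decoy receptor IL1R2 had an H3K27ac peak in 7 libraries and RNAPII in none. No gene of the list had a peak in every library with IL1RN gRNAs and in none of the others, or the reverse, for either antibody and construct. Of the 20163 coding promoters, 0% met the first pattern for H3K27ac with either construct and for RNAPII with dCas9-p300(core), and 0.169% did so for RNAPII with dCas9-VP16(10x). The reverse was met by 1 promoter, for RNAPII with dCas9-p300(core) (0.00496%), and by 0% in the other comparisons.

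**Figure D5:**
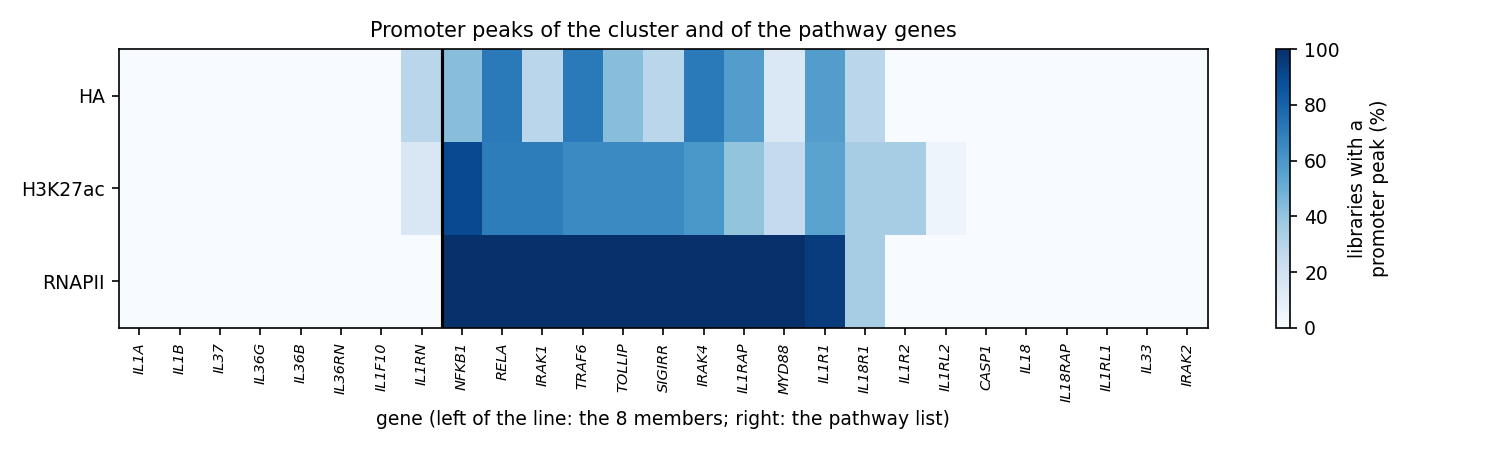
Share of libraries (%) with a promoter peak for the 8 members, left of the line, and the 19 pathway genes, in HA, H3K27ac and RNAPII libraries. Of the members, IL1RN alone is shaded, for HA and H3K27ac, whereas 9 pathway genes reach 100% for RNAPII and 6 have no H3K27ac peak.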

How the data were processed

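ChIP-seq reads had been aligned to hg19 by the authors, who named bowtie, samtools (duplicate removal) and bedtools, with bowtie 1.1.2 and MACS2 2.1.0.20140616 in the submitters' processing notes. The authors deposited a normalized signal for 23 regions, which is reads divided by total depth and then by the depth within shared peaks (H3K27ac, RNAPII) or at control promoters (HA). The division by shared peaks or control promoters sets libraries of unequal enrichment on 1 scale, so differences between runs in the signal depend on it. The deposited peak lists, 1 for each library, give a display score, the fold enrichment (a ratio over background), and the −log10 p and −log10 q of each peak, and their lowest −log10 p was 10.0. The authors' score was not analysed.

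Reads were inferred from the steps of the signal, where 1081 of 1081 values were whole multiples within 0.02 of a step, and they cover counting error only. The signal was compared as log2 of the value plus the antibody's smallest value above 0, in limma 3.58.1 (R 4.3.3), with 1 mean per construct and gRNA pool over all libraries of the antibody and Benjamini-Hochberg adjustment over 23 regions. The limma step was also tried on simulated data with independent noise, for the dCas9-VP16(10x) comparison only. The simulation held no difference between runs, so it does not cover the run split seen in H3K27ac. Exact permutation tests and Fisher's exact tests over libraries were adjusted over 5 comparisons, and all tests were two-sided. Of 22 replicate pairs, 19 differed beyond sampling noise at untargeted regions (chi-square, unadjusted p under 0.05). The others were the HA and RNAPII pairs named above and H3K27ac dCas9-p300(core) Pool 1 (chi-square 6.56 on 10 degrees of freedom). That Pool 1 pair was kept as separate libraries, with no alternative run. Genes were taken from GENCODE v44lift37 and promoter sequences from RefSeq, and a promoter peak lay within 1000 bp of an annotated start. The members, pathway genes and markers were chosen with earlier results of these data known. One further marker of the list is not reported here. The genes named are the members, IL36A, genes with a peak in the window, the pathway list, and the 2 regions per antibody most correlated with IL1RN. Counting the HA pair as 1 library, the RNAPII pair as 1, the doubtful library with the other construct and using 2 groups per construct within runs were chosen after the data were seen. No sequence of an IL1RN gRNA was used here.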

Additional observations from a re-analysis of the deposited data

How the results depend on the processing

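Of the alternatives to the limma, permutation and peak results, 288 were counted as unchanged. Another 10 moved a result past the threshold, 7 moved a result below it, 4 reversed a direction and 4 moved a count. For limma and permutation results, unchanged means the same direction and side of the threshold. For peak results, it means the same or nearly the same count. Some tests, such as the HA permutation test, could not pass under any setting, so the total is not a measure of robustness. For HA with dCas9-VP16(10x), the adjusted p was under the threshold with a 4-fold pseudocount (4.51, adjusted p = 0.0441, 3 regions called), with libraries of the construct only (4.94, adjusted p = 7.93e-08, 12 called, 1 residual degree of freedom) and with the run block (4.72, adjusted p = 0.0137, 1 called), against 0 called. The targeted group was 1 library, so these p-values carry no spread of its own, and the exact permutation test cannot go below 0.5. Leaving out each of the 5 HA libraries without IL1RN gRNAs gave 4.67 to 5.14, past the threshold in 4, and the single IL1RN library could not be left out.

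For H3K27ac with dCas9-VP16(10x), the call was lost with 0.25 of the pseudocount (4.84, adjusted p = 0.0746), after division by the median of the 4 gene promoters (4.44, adjusted p = 0.204) and in libraries with a run identifier (3.49, adjusted p = 0.298). The run block called 7 regions against 1. Leave-one-out values were 3.83 to 5.50, with the call kept in 16 of 20. For H3K27ac with dCas9-p300(core), the difference passed with the run block (2.99) and in libraries without an identifier (3.57), with 1 region called against 0, and leave-one-out values were 1.48 without IL1RN replicate 2 to 5.13 without replicate 1. With the doubtful Pool 1 library counted with dCas9-p300(core), the differences were 4.73 and 3.28. With a peak required to cover at least 0.5 of the region, the number of libraries with IL1RN gRNAs that had a promoter peak went from 1 to 0 for dCas9-p300(core) and stayed at 2 for dCas9-VP16(10x), and leave-one-out counts were 0 to 1 for dCas9-p300(core) and 1 to 2 for dCas9-VP16(10x).

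Differences below 0 arose in RNAPII with dCas9-p300(core) without IL1RN replicate 1 (-0.82 in limma and in the permutation test, range -0.82 to 1.5), and in the construct differences for H3K27ac (-0.62 to 3.04, lowest without dCas9-p300(core) IL1RN replicate 1) and RNAPII (-0.42 to 1.90, lowest without dCas9-p300(core) IL1RN replicate 2). RNAPII with dCas9-VP16(10x) ran from 0.69 with the run block to 1.21, and from 0.92 when single libraries were left out. The causes were not tested.

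Replicate numbers are shared between groups. Same-numbered libraries deviated together (r over 0.1) in 33 of 36 group pairs for H3K27ac (median r 0.38) and 17 of 45 for RNAPII. The numbers were taken as a pairing only if every pair exceeded 0.1, so they were not, although most H3K27ac pairs did. With the replicate block, H3K27ac differences were 5.05 (adjusted p = 1.16e-06) and 3.31 (adjusted p = 0.00318, 1 region called against 0), 1.74 apart, and RNAPII differences were 1.08 and 0.34, 0.74 apart, all without a call. HA could not be blocked, with 1 IL1RN library. An edgeR fit on reads inferred from the steps was not run. Few reads at the IL1RN promoter limit RNAPII with dCas9-p300(core) (7 and 19 reads) and HA with dCas9-p300(core) (0 and 6 reads). The RNAPII library with 7 reads was not shallow, with 2910 reads in the 23 regions, whereas the library with 19 had 819.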
